A study of Rattus norvegicus with 6 samples.

Results

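The secreted synapse regulators and brain matrix proteoglycans examined here are 10 genes chosen by symbol, namely the thrombospondins Thbs1 and Thbs2, Sparc and its relative Sparcl1, the glypicans Gpc4 and Gpc6, tenascin C (Tnc), and the lecticans Vcan, Ncan and Bcan. All 10 were found among the 22608 genes of the table, and all 10 were among the 12373 genes tested. The treated cells were rat primary astrocytes given β-hydroxybutyrate (BHB), the main ketone body of fasting, in 3 libraries, at a dose of 2 mM per the column names. They were compared with control astrocytes in 3 libraries. Both groups were cultures of brain astrocytes. The sources used here state neither culture age, purity nor treatment time, and do not say if replicate libraries began as different cultures or rats. The p-values therefore reflect library-to-library spread alone, which may be technical.

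Astrocytes release proteins that make and tune synapses. Thrombospondins bind the calcium channel subunit α2δ-1 (Cacna2d1) on neurons and start structurally complete but postsynaptically silent synapses. Hevin, the product of Sparcl1, promotes the formation of excitatory synapses, and SPARC counteracts it. Glypicans 4 and 6 draw AMPA-type glutamate receptors to the synapse. The lecticans are chondroitin sulfate proteoglycans that bind hyaluronan and, together with tenascins and link proteins, form the matrix between brain cells and the nets around neurons. Most of these roles were worked out in mouse and rat.

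Promoter sequences were taken from RefSeq for the GRCr8 assembly, which has windows for 8 of the 10 genes (9 windows, as Vcan has 2). The deposited values were made on another build, rn6, and no data were read at these positions. The 150 bases before the annotated start are shown 5′ to 3′ on the gene's strand for 4 genes. Sparc is shown as the gene with a library that stood apart, Sparcl1 as its relative without one, and Ncan and Gpc4 as the most abundant lectican and glypican of the 10. Capitals mark matches, on either strand, to the motifs searched.
Sparc (chr10:40038817-40038966, minus strand): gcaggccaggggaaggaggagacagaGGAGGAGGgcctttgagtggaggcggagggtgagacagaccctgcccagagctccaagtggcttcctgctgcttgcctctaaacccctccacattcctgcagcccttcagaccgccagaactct
Sparcl1 (chr14:5937334-5937483, plus strand): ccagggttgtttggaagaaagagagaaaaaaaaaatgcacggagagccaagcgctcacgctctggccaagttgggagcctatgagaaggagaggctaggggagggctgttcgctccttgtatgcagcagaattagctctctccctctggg
Ncan (chr16:19335757-19335906, plus strand): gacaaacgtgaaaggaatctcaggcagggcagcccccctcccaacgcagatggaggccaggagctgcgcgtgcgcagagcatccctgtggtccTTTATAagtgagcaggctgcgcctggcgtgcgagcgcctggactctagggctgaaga
Gpc4 (chrX:136676058-136676207, minus strand): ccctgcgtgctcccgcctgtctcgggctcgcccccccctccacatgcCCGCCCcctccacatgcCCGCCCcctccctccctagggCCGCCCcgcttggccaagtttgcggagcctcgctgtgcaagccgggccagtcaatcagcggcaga

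The motifs were searched on both strands of the 250 bases before the start, and they do not overlap each other in the sequences shown. The GGA box (GGAGGAGG), a purine repeat described in Sparc promoters of mammals, was in 3 of the 9 windows, those of Sparc and Bcan and 1 of Vcan, and in 6.97% of the 33469 RefSeq windows. The GC box (GGGCGG) was in 7 of the 9 windows, with 4 copies before Gpc4, and in 30.5% of all windows. The Vcan windows overlap, and their GC box matches are the same site, counted in both. The letters of the TATA box (TATAAA) were in those of Tnc and Ncan and in 12.9% of all. In Tnc the match began at -208 from the start, and in Ncan it lay on the opposite strand at -57. Only these exact letters were searched, so the similar letters tatataag nearer the start of Tnc were not counted. The CCAAT box (CCAAT) was in those of Thbs1 and Vcan and in 34.0% of all. The AP-1 site (TGANTCA), searched because AP-1 subunit genes were among the few that passed the test in these data, was in 0 of the 9 windows and in 6.34% of all. The Sparcl1 window held none of the 5 motifs. A match is a description of letters and not a bound site.

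The deposited values are FPKM, fragment values scaled by transcript length and library depth, so levels can be set side by side between genes. The sums of FPKM were 361730 to 367448 in BHB libraries and 354565 to 365566 in control libraries, and read depth is unknown. Astrocyte markers were abundant, with Fabp7 highest at 2275 to 2326 FPKM in BHB libraries and 2232 to 2412 FPKM in control libraries. The summed level of 10 astrocyte markers was 5051 to 5073 FPKM with BHB and 4647 to 4902 FPKM in controls, groups that did not overlap. That gap rested on Slc1a3, and the sums of the other markers overlapped between the groups. Of the 10 only Slc1a3 passed, at 455.2 ± 11.6 FPKM with BHB and 202.7 ± 5.003 FPKM in controls (SD, n = 3 each, limma adjusted p = 1.64e-05). The part of these markers in the results below was not tested. The summed level of 8 fibroblast and mural cell markers was 4635 to 5020 FPKM with BHB and 4482 to 4857 FPKM in controls, led by Tagln. The fibroblast markers differed widely in level. Col1a1, Col1a2 and Col3a1 averaged 100.4, 266.2 and 14.2 FPKM with BHB and 98.8, 270.9 and 13.9 FPKM in controls. Dcn and Lum reached at most 0.0324 and 0.234 FPKM. Oligodendrocyte precursor markers summed to 37.1 to 40.0 FPKM with BHB and 35.5 to 36.9 FPKM in controls, led by Olig1. Neuron markers summed to 83.7 to 85.3 FPKM with BHB and 83.7 to 87.2 FPKM in controls, led by Stmn2, and microglia markers to 19.4 to 20.2 FPKM with BHB and 19.4 to 21.6 FPKM in controls, led by Csf1r. Endothelial markers summed to at most 1.03 FPKM with BHB and 1.26 FPKM in controls, led by Tek, with Cldn5 at 0 in all 6 libraries. In such bulk samples fewer cells of a type and less RNA per cell cannot be told apart.

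The 10 genes spanned a wide range of levels in the same order in both groups. Sparc led, followed by Ncan, Thbs1, Tnc, Sparcl1, Gpc4, Bcan, Vcan, Gpc6 and Thbs2. Mean levels ran down to 22.5 ± 1.34 FPKM for Thbs2 with BHB and 21.96 ± 1.93 FPKM in controls (SD, n = 3 each). Neighbours in this order did not overlap between libraries of a group, except Thbs1 and Tnc with BHB. Together the 10 genes made up 1.06% to 1.48% of the summed FPKM in BHB libraries and 1.08% to 1.13% in control libraries, and without Sparc 0.661% to 0.698% in BHB libraries and 0.666% to 0.702% in control libraries.

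**Figure D1:**
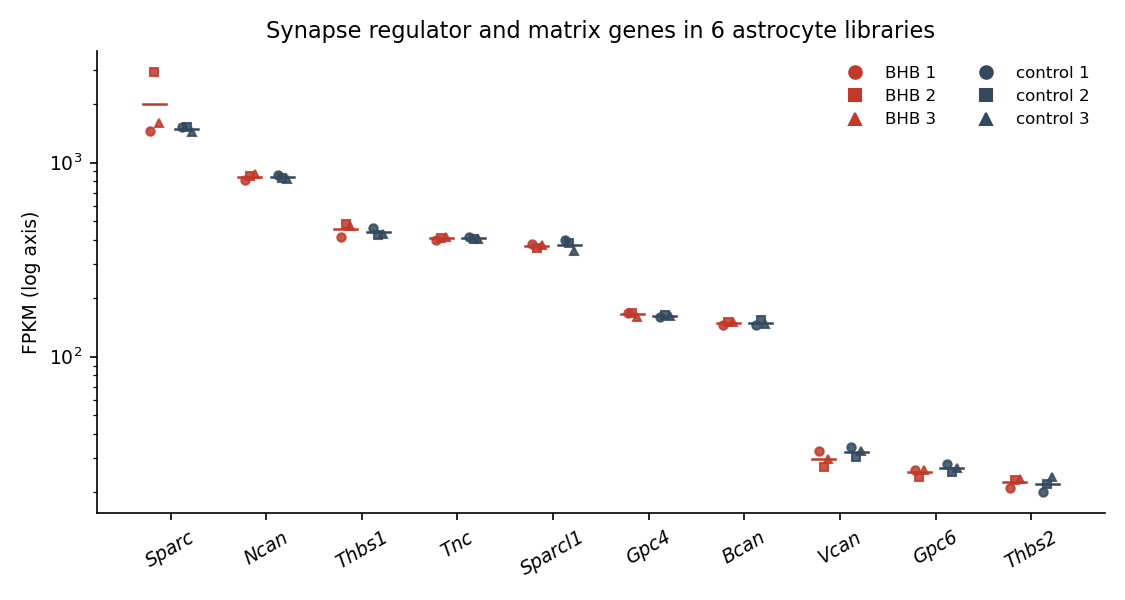
FPKM of the 10 genes (log axis) in the 3 BHB libraries (left, red) and the 3 control libraries (right, dark), with a symbol for each library and a line at the group mean. The genes keep the same order in both groups, and only BHB 2 for Sparc, at 2936 FPKM, lies far from the rest of its gene.

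None of the 10 genes passed the test between BHB and control, where 0.0566% of all genes tested did (7 of 12373, limma adjusted p under 0.05). The lowest adjusted p among them was 0.890 for Vcan, and 0 of the 10 had an unadjusted p under 0.05, against 5.59% of all genes tested. The groups overlapped in all 10 genes, while 10.9% of all genes tested had groups that did not overlap. Log2 fold changes were above 0 for 7 of the 10, the median being 0.0082, and 51.5% of all genes tested lay above 0, with a median of 0.0029. The exact two-sided permutation p of the group means ran from 0.2 (Vcan) to 1.0 (Bcan), and 0.1 is the smallest that 3 against 3 allows.

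**Figure D2:**
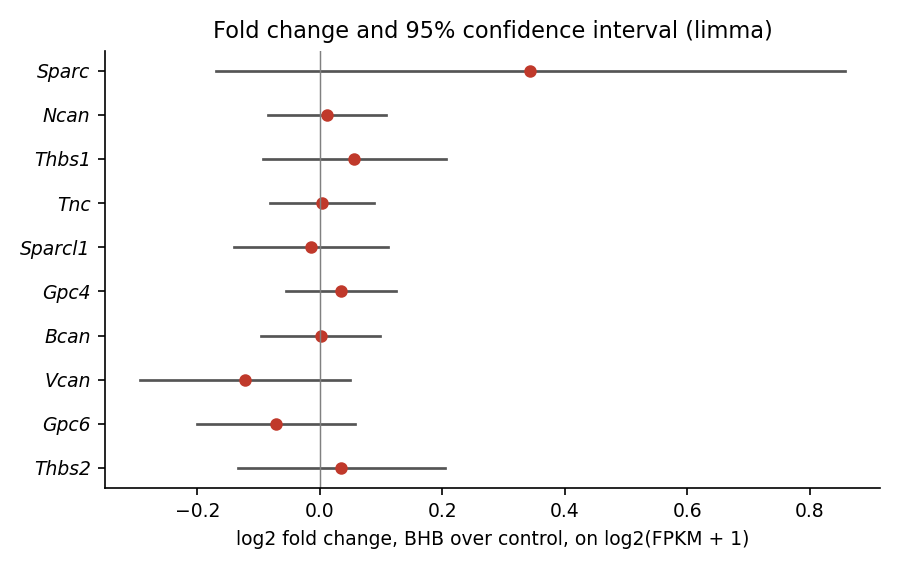
Log2 fold change of BHB over control on the log2(FPKM + 1) scale for the 10 genes (points), with 95% confidence intervals from limma (lines). Every interval includes 0, and that of Sparc, from -0.17 to 0.86, is the widest.

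Thbs1, which encodes the thrombospondin of developing and injured astrocytes and an activator of latent TGF-β, stood at 413.8, 484.5 and 471.9 FPKM in BHB 1 to 3 and at 460.6, 423.9 and 430.6 FPKM in control 1 to 3. BHB 2 and BHB 3 were the highest libraries and BHB 1 the lowest, so the groups overlapped. The difference did not pass (log2 fold change 0.06, 95% interval -0.09 to 0.21, limma adjusted p = 0.921), and the log2 fold change was 0.13 without BHB 1 and 0.01 without BHB 2. Thbs2, the other thrombospondin of the trimeric subgroup, was far less abundant, at 20.9, 23.2 and 23.3 FPKM with BHB and 20.0, 21.9 and 23.9 FPKM in controls. The highest and the lowest value both belonged to controls. Thbs2 had a log2 fold change of 0.04 with a 95% interval of -0.13 to 0.20 (limma adjusted p = 0.958), and of -0.03 without control 1.

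The ratio of Thbs1 to Thbs2 in a library was 19.8, 20.9 and 20.2 in BHB 1 to 3 and 23.0, 19.3 and 18.0 in control 1 to 3. All 3 BHB ratios lay inside the range of the controls. Thbs1 held 90.9% to 91.5% of the summed FPKM of the 5 thrombospondin genes with BHB and 90.5% to 91.8% in controls.

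Sparc, which encodes a collagen-binding matricellular protein that opposes hevin at synapses, was the most abundant of the 10. It stood at 1463, 2936 and 1598 FPKM in BHB 1 to 3 and at 1521, 1531 and 1441 FPKM in control 1 to 3. BHB 2 alone was high, at 1.84 times the next library and 1.93 times the median of the other 5. BHB 1 lay among the controls and BHB 3 just above them. The difference of 0.34 on the log2 scale (95% interval -0.17 to 0.86, limma adjusted p = 0.893) rested on BHB 2, and without that library it was 0.03 (SE 0.0574, limma adjusted p = 1.00). Mean levels were 1999 ± 814.6 FPKM with BHB and 1498 ± 49.0 FPKM in controls (SD, n = 3 each), and BHB 1 and 3 alone averaged 1530 FPKM, a ratio of 1.02 to the controls.

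No other gene tested at a mean of at least 100 FPKM had a library so far above the rest. Of 590 such genes, 3 had a library at least 25% above the next, all of them in BHB 2, and Sparc alone was past 1.5-fold. Arf1 and Rn18s, the other two, are named here after their values were seen, and stood at 1.42 and 1.39 times the next library. In 6 other genes the lowest library was exceeded by at least 25% by the next lowest, and none of these was in BHB 2. At a mean of at least 10 FPKM a high library was most often BHB 2, but not only there. Of 6401 genes at this level, 24 had a library at least 25% above the next, 10 of them in BHB 2 and 0 to 5 in each other library. Past 1.5-fold there were 13, of which 6 were in BHB 2. A low library set apart by at least 25% was found in 98 genes, 17 of them in BHB 2 and 26 in control 1. Over all genes tested, 6.56% had a library set apart in either of these ways. Among the 10 genes this was Sparc alone.

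**Figure D3:**
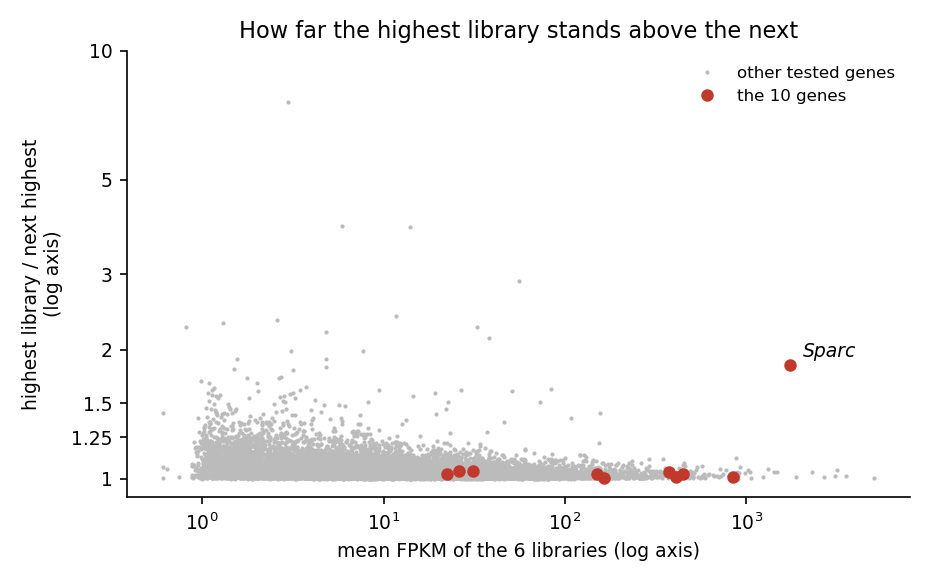
Ratio of the highest library to the next highest (log axis) against mean FPKM of the 6 libraries (log axis) for the genes tested (grey) and the 10 genes described (red). Sparc lies at 1.84, apart from the other genes of its level, while the other 9 red points lie between 1.00 and 1.04.

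The printed form of the values differed between the genes. Those of Thbs1, Thbs2, Sparcl1 and Ncan had at most 6 decimals, and in all 6 libraries they were numbers that single-precision storage can hold. Those of Sparc, Gpc4, Gpc6, Tnc, Vcan and Bcan were written with up to 10 significant digits, which for Sparc also comes to 6 decimals, since its levels have 4 digits before the point. In Sparc, Gpc4, Tnc and Bcan no library held a single-precision number. RefSeq lists 1 transcript for Sparc, 2 each for Gpc4 and Gpc6, 4 for Vcan, 11 for Tnc and 15 for Bcan, and 1 each for Thbs2, Sparcl1 and Ncan and 2 for Thbs1. Of the genes with a mean of at least 100 FPKM, 7 of 217 without single-precision values throughout had a library set apart by at least 25%, against 2 of 373 with them. Sparc is 1 of these 7, and without it the count was 6 of 216. These counts take high and low libraries together. Of the genes without single-precision values throughout, only Sparc and Arf1 were set apart by a high library, and of those with them only Rn18s. The others were set apart by a low library. The sources used here do not state how the values of a gene were combined, and its part in the Sparc value of BHB 2 was not tested.

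Markers of fibroblasts and mural cells, which also express Sparc, were highest in BHB 2 for 5 of 8, all 5 among the 6 markers tested. Of all genes tested, 19.0% were highest in that library. The sum of the 8 markers was 4635, 5020 and 4880 FPKM in BHB 1 to 3 and 4837, 4857 and 4482 FPKM in control 1 to 3. BHB 2 and BHB 3 both lay above all controls in this sum. Most of it came from Tagln and Acta2, at 3190 and 1398 FPKM in BHB 2. The fibroblast markers Col1a1, Col1a2 and Col3a1 were highest in BHB 2, at 108.4, 280.4 and 15.9 FPKM. In control 2, the highest control for each, they stood at 101.4, 279.6 and 14.3 FPKM. Dcn and Lum were at 0 in BHB 2, but both were near 0 in every library. The part of these cells in the Sparc value was not tested. Fibronectin (Fn1), another abundant matrix gene, was highest in BHB 2 but close to BHB 3. It was at 744.3, 871.0 and 867.5 FPKM with BHB and 841.5, 823.5 and 833.7 FPKM in controls, and BHB 1 was its low library.

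Sparcl1, which encodes hevin, stood at 379.2, 361.8 and 378.1 FPKM in BHB 1 to 3 and at 398.7, 384.6 and 348.7 FPKM in control 1 to 3. The BHB values lay inside the range of the controls. On the log2 scale the fold change was -0.01 (95% interval -0.14 to 0.11, limma adjusted p = 0.979), and the sign turned without control 1, control 2 or BHB 2. Because hevin and SPARC act against each other, their ratio was also read in each library. Sparc was 3.86, 8.11 and 4.23 times Sparcl1 in BHB 1 to 3 and 3.82, 3.98 and 4.13 times in control 1 to 3. The ratio holds the same Sparc values, so BHB 2 standing apart in it is not a separate observation. The mean log2 ratio differed by 0.36 between BHB and control with BHB 2 and by 0.02 without it.

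**Figure D4:**
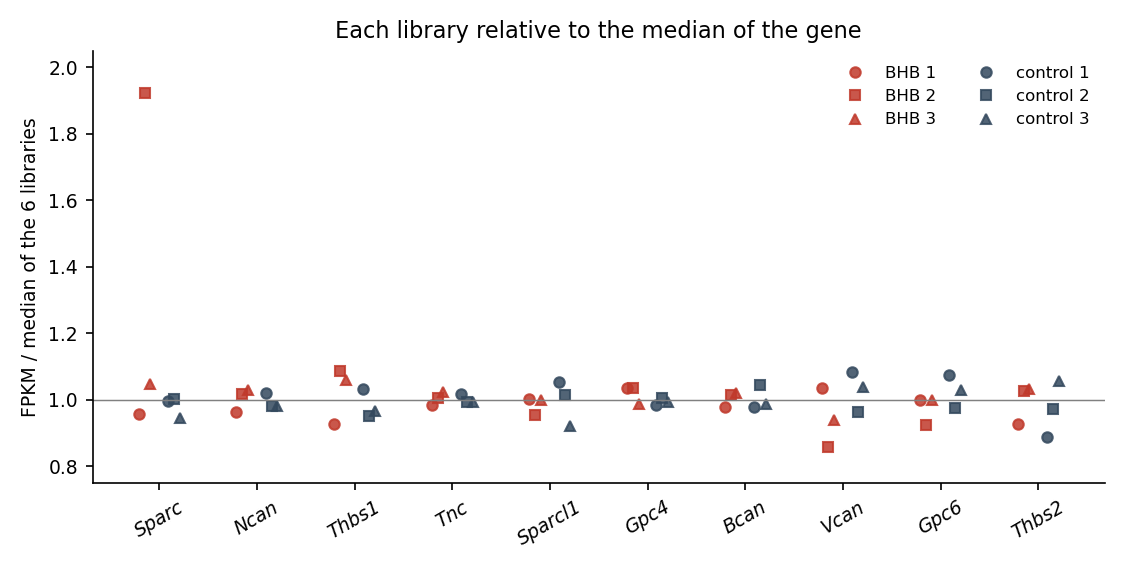
FPKM of each library divided by the median of the 6 libraries of that gene, for BHB (left, red) and control (right, dark) libraries. All libraries of the other 9 genes lie close to 1, while Sparc in BHB 2, at 2936 FPKM, lies far above them.

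Gpc4 stood at 168.1, 168.3 and 160.1 FPKM in BHB 1 to 3 and at 159.7, 163.1 and 161.5 FPKM in control 1 to 3. BHB 1 and BHB 2 lay above all controls and BHB 3 among them. The fold change of Gpc4 was 0.04 on the log2 scale (95% interval -0.05 to 0.12, limma adjusted p = 0.921), and its interval ends at 1.09-fold on the FPKM + 1 scale. Gpc6 was at 26.0, 24.1 and 26.0 FPKM with BHB and 27.9, 25.4 and 26.8 FPKM in controls, which differed by -0.07 on the log2 scale (95% interval -0.20 to 0.06, limma adjusted p = 0.901), and by -0.03 without BHB 2 or -0.04 without control 1. Its lowest library was BHB 2 and its highest control 1.

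Gpc4 was 6.46, 6.99 and 6.15 times as abundant as Gpc6 in BHB 1 to 3 and 5.71, 6.42 and 6.03 times in control 1 to 3. The ranges overlapped, with BHB 2 highest. Within the family of 6 glypicans, Gpc4 held 49.2% to 50.8% of the summed FPKM with BHB and 49.4% to 50.0% in controls. Gpc6 held 7.18% to 7.99% with BHB and 7.70% to 8.69% in controls.

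Tnc, the large glycoprotein of the embryonic and injured brain matrix, had the narrowest range of the 10. It stood at 399.4, 407.8 and 415.7 FPKM in BHB 1 to 3 and at 413.3, 403.0 and 403.1 FPKM in control 1 to 3, so that the highest library was 1.04 times the lowest. For Tnc the log2 fold change was 0.004 (95% interval -0.08 to 0.09, limma adjusted p = 0.993), with a sign that turned under both other scalings of the libraries. The interval spans 0.945-fold to 1.06-fold on the FPKM + 1 scale. Among the tenascins, Tnc held 86.4% to 87.5% of the summed FPKM with BHB and 86.6% to 88.1% in controls.

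Ncan, neurocan, the lectican of the young brain that is cleaved and lost with maturation, stood at 812.9, 856.8 and 868.3 FPKM in BHB 1 to 3 and at 861.1, 828.2 and 826.7 FPKM in control 1 to 3. BHB 3 was its highest library and BHB 1 its lowest. Bcan, brevican, the lectican of the adult brain, was at 145.4, 150.5 and 151.6 FPKM with BHB and 145.5, 155.0 and 146.5 FPKM in controls, with BHB 1 lowest and control 2 highest. The log2 fold changes were 0.01 for Ncan (95% interval -0.08 to 0.11, limma adjusted p = 0.978) and 0.002 for Bcan (95% interval -0.10 to 0.10, limma adjusted p = 0.997), and both signs turned under either other scaling.

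Vcan, versican, a lectican of growing tissue and of glial precursors, stood at 32.6, 27.0 and 29.5 FPKM in BHB 1 to 3 and at 34.1, 30.3 and 32.6 FPKM in control 1 to 3. BHB 2 and BHB 3 lay under all controls and BHB 1 among them. The fold change, -0.12 on the log2 scale (95% interval -0.29 to 0.05, limma adjusted p = 0.890), had the smallest p of the 10 genes, an unadjusted 0.140, and kept its sign under each alternative run, from -0.19 without BHB 1 to -0.06 without BHB 2. The interval reaches 0.816-fold on the FPKM + 1 scale, and a decrease of that size lies inside it.

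Neurocan made up most of the lectican RNA per length. Its share of the 4 lecticans was 82.0% to 82.8% with BHB and 81.7% to 82.7% in controls, that of brevican 14.4% to 14.7% with BHB and 14.0% to 15.3% in controls, and that of versican 2.61% to 3.28% with BHB and 2.99% to 3.27% in controls. Acan, aggrecan, the lectican of perineuronal nets, was under the minimum for testing, at 0.621 ± 0.0824 FPKM with BHB and 0.595 ± 0.0117 FPKM in controls (SD, n = 3 each). The ratio of Ncan to Bcan was 5.59 to 5.73 with BHB and 5.34 to 5.92 in controls, and BHB libraries lay inside the control range.

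Genes that work with these 10 were read from 7 lists holding 127 symbols, of which 126 were found and 103 tested. With limma none passed. An unadjusted p under 0.05 was found for 5 (4.85%), and 60 lay above 0. In 14 of the 103 (13.6%) the groups did not overlap, against 10.9% of all genes tested. The medians of the 7 lists lay between -0.02 and 0.04 on the log2 scale.

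**Figure D5:**
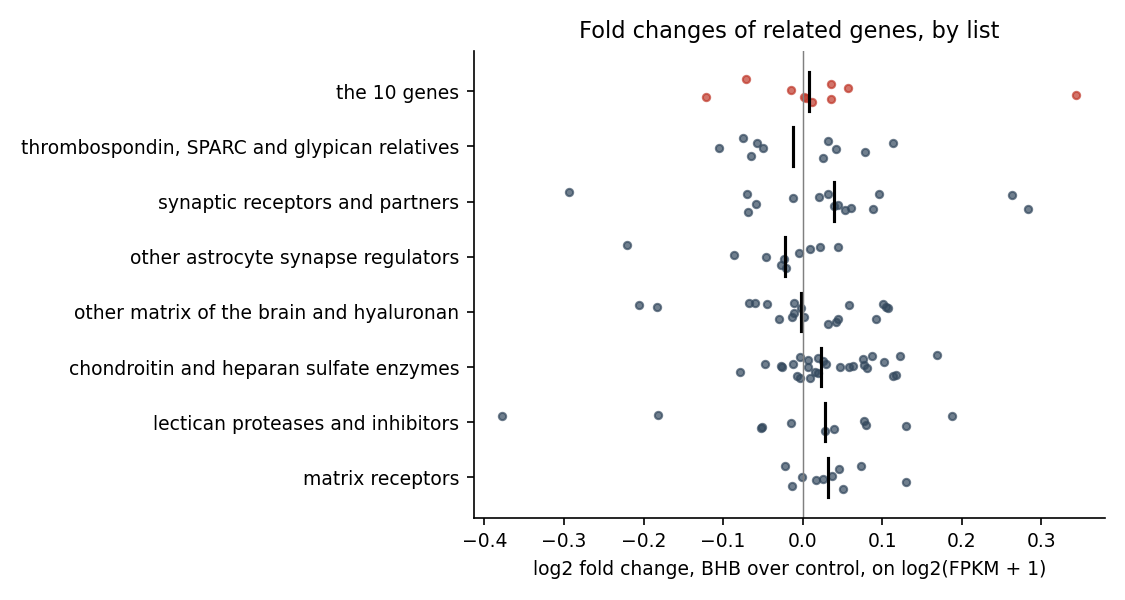
Log2 fold changes of BHB over control on the log2(FPKM + 1) scale for the 10 genes (red) and the tested genes of 7 related lists (dark), with a black line at each median. The medians lie between -0.02 and 0.04, and Sparc, at 0.34, is the red point far to the right.

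Among relatives of thrombospondins, SPARC and glypicans 5 of 10 tested genes lay above 0. The abundant members were Fstl1, a secreted SPARC relative, at 373.5 ± 6.52 FPKM with BHB and 362.9 ± 11.4 FPKM in controls, and Gpc1, at 128.0 ± 2.92 FPKM with BHB and 125.2 ± 4.19 FPKM in controls (SD, n = 3 each). For Gpc2 the log2 fold change was 0.11 (limma adjusted p = 0.890). The level of Fstl1 was close to that of Sparcl1, and Gpc1 was the glypican next to Gpc4.

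Of synaptic receptors and partners 10 of 15 tested genes lay above 0. The receptor phosphatases Ptprf and Ptprs, which bind heparan and chondroitin sulfate chains, were the most abundant. Ptprs, a receptor of Gpc4, stood at 84.4, 88.8 and 87.6 FPKM in BHB 1 to 3 and at 81.8, 79.1 and 83.1 FPKM in control 1 to 3, and the groups did not overlap. The difference of 0.10 on the log2 scale did not pass (limma adjusted p = 0.881), and that of Ptprf was 0.05 (0.898). Nptx2, a secreted pentraxin that gathers AMPA receptors, stood at 1.16 ± 0.186 FPKM with BHB and 0.775 ± 0.169 FPKM in controls (SD, n = 3 each), near the level where the scale understates differences (log2 fold change 0.28, limma adjusted p = 0.881).

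Among other synapse regulators of astrocytes 3 of 10 tested genes lay above 0. Mfge8, a bridge for phagocytosis, and Clstn1, calsyntenin, were the most abundant, at 118.9 ± 5.13 and 83.8 ± 3.31 FPKM with BHB and 115.3 ± 4.56 and 84.0 ± 1.10 FPKM in controls (SD, n = 3 each). Il33, a cytokine that prompts microglia to engulf synapses, stood at 2.051, 2.202 and 2.693 FPKM in BHB 1 to 3 and at 2.99, 2.76 and 2.80 FPKM in control 1 to 3. All BHB values lay under all controls, and the difference of -0.22 on the log2 scale did not pass (limma adjusted p = 0.881). In Hepacam, an adhesion protein of astrocytes, the log2 fold change was -0.09 (limma adjusted p = 0.890).

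In the other matrix genes 9 of 19 tested lay above 0, and the small proteoglycan gene Bgn and Fn1 were the most abundant. Bgn was at 639.9 ± 52.4 FPKM with BHB and 670.2 ± 41.9 FPKM in controls (SD, n = 3 each). Agrn, agrin, a heparan sulfate proteoglycan, had the smallest p of these lists. It stood at 65.3, 59.0 and 57.6 FPKM in BHB 1 to 3 and at 68.2, 68.1 and 70.2 FPKM in control 1 to 3, and the groups did not overlap. A log2 fold change of -0.18 with a 95% interval of -0.31 to -0.06 failed the correction over all genes tested (limma adjusted p = 0.881), and that of the syndecan gene Sdc4 was 0.11 (0.881).

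Enzymes that build chondroitin and heparan sulfate chains had 20 of 28 tested genes above 0, with a median of 0.02 and none with an unadjusted p under 0.05. Ext2, a heparan sulfate polymerase, and the sulfatase gene Sulf2 were the most abundant, at 55.5 ± 1.98 and 48.2 ± 3.48 FPKM with BHB and 52.4 ± 1.34 and 48.5 ± 2.98 FPKM in controls (SD, n = 3 each). The chondroitin chain makers Chsy1 and Chpf had groups that did not overlap. Chsy1 stood at 20.2, 21.0 and 21.6 FPKM in BHB 1 to 3 and at 19.1, 18.7 and 19.9 FPKM in control 1 to 3 (log2 fold change 0.12, limma adjusted p = 0.881), and Chpf had 0.09 (0.890).

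Of proteases that cut lecticans and their inhibitors 6 of 11 tested genes lay above 0. The inhibitors Timp2 and Timp3 were the most abundant, with log2 fold changes of 0.04 and -0.05 (limma adjusted p = 0.918 and 0.898). Adamts1, a protease that cuts versican, stood at 3.999, 3.681 and 4.068 FPKM in BHB 1 to 3 and at 3.14, 3.43 and 3.37 FPKM in control 1 to 3. Timp4 stood at 1.01, 1.56 and 1.83 FPKM in BHB 1 to 3 and at 2.31, 2.02 and 2.20 FPKM in control 1 to 3. The groups did not overlap in either gene, and neither log2 fold change, 0.19 and -0.38, passed (limma adjusted p = 0.881 each). Among matrix receptors 7 of 10 lay above 0. Itgb1, the common integrin chain, was the most abundant, at 510.8 FPKM in both groups, followed by Anxa2, a tenascin C receptor, and Itgb5 and Itga5 had log2 fold changes of 0.07 and 0.13 (limma adjusted p = 0.890 each).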

How the data were processed

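Poly(A) RNA libraries of 3 BHB-treated and 3 control astrocyte samples were grouped by their titles. The authors deposited FPKM values per gene symbol, 1 column a library. Per the submitters' processing notes the tools included bcl2fastq 2.0, HISAT2 and StringTie, and the build was rn6. The sources used here state no annotation, strand setting or treatment of shared reads. Depth is unknown from FPKM, so no counting interval is given.

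Values were used as log2(FPKM + 1) with no added scaling. The test took genes that reached 1 FPKM in 3 or more libraries and was run with limma 3.58.1 in R 4.3.3 (eBayes with an intensity trend), two-sided, with Benjamini-Hochberg adjustment over all genes tested and a threshold of 0.05. This scale understates the change of low genes. The fit was tested on simulated data. RefSeq tables gave promoters, gene names and transcript numbers.

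The 10 genes and the lists were chosen with earlier results of these data known. The 10 genes were always named. From each related list the 2 most abundant genes, the 2 with the smallest p and any that passed were named, and from each marker list the most abundant and those at 0. Some further markers were named after their values were seen. Alternatives were a pseudocount of 0.1, no filter, 2 scalings, no trend, array weights, a replicate block and leaving out each library. Some genes of the related lists are not reported here.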

Additional observations from a re-analysis of the deposited data

How the results depend on the processing

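None of the 10 genes passed under any alternative run, and the lowest adjusted p over these was 0.685. Over all genes, 4 were called without the eBayes trend and 2 with the replicate block, against 7 (the cause was not tested), and 5 to 10 when a library was left out of the same genes. Log2 fold changes of Tnc, Ncan and Bcan turned to -0.0504, -0.0247 and -0.0210 under quantile normalization and to -0.0129, -0.00471 and -0.0153 with libraries scaled to equal sums, scalings that move the median of all genes by -0.0065 and -0.0150. Leaving out a library gave -0.0101 to 0.0186 for Tnc, -0.0068 to 0.0407 for Ncan, -0.0152 to 0.0303 for Bcan, -0.0262 to 0.0954 for Thbs2, -0.0703 to 0.0261 for Sparcl1, 0.0302 to 0.533 for Sparc, 0.0125 to 0.126 for Thbs1, 0.0229 to 0.0588 for Gpc4, -0.105 to -0.0348 for Gpc6 and -0.188 to -0.0575 for Vcan. Deviations from the group means correlated weakly between libraries of the same number (r = -0.0899, 0.164 and -0.151). BHB 2 correlated best with its own number, and BHB 1 and BHB 3 with another. With 3 libraries a group this cannot exclude pairing. Depth is unknown, and differences inside the intervals given are not excluded.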

Other observations

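Some partners of the 10 genes, named here after their values were seen, had a single library apart. A library at least 25% beyond the nearest of the others was found in 6.56% of all genes tested. Nlgn1, a postsynaptic adhesion protein through which hevin acts, stood at 5.08, 4.54 and 4.68 FPKM in BHB 1 to 3 and at 4.80, 4.66 and 2.37 FPKM in control 1 to 3, so control 3 alone was low. The log2 fold change of 0.26 did not pass (limma adjusted p = 0.898). Hapln1, a link protein that fixes lecticans to hyaluronan, stood at 1.43, 1.11 and 0.485 FPKM in BHB 1 to 3 and at 1.197, 1.192 and 1.427 FPKM in control 1 to 3, and BHB 3 alone was low. Hapln1 thus lay near 1 FPKM, the minimum for testing. Cacna2d1, the thrombospondin receptor, had no such library, at 26.1, 23.2 and 22.4 FPKM in BHB 1 to 3 and 25.03, 22.98 and 27.37 FPKM in control 1 to 3.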
